A study of Mus musculus with 6 samples.

Results

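The genes described are those for iron storage, uptake and sensing in the cell: Ftl1 and Fth1, which encode the light and heavy chains of ferritin, Tfrc, which encodes the transferrin receptor, and Ireb2 and Aco1, which encode the iron regulatory proteins IRP2 and IRP1. They are grouped by function, and rows were taken by gene symbol. Of these 5 genes, 4 were measured among 12615 rows of the deposited table. The expression of Aco1 was not analysed here, and its annotated transcript was used for sequence searches only. All samples were Ba/F3 cells, a mouse pro-B cell line that needs interleukin-3 (IL-3), grown with IL-3 at 1 ng/ml and expressing a construct from the pMSCV-IRES-GFP vector. They carried human calreticulin with the type 1 mutation (hCALR-del52, 3 replicates) or human calreticulin without it (hCALR, 3 replicates). Calreticulin helps glycoproteins fold, and the mutation is a deletion known from myeloproliferative neoplasms. The question was which transcripts differ between the mutant and the unmutated construct while IL-3 is present. The mutation and the line that carries it cannot be told apart in this design, and the labels do not say whether replicates were separate cultures.

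Cells take up iron by binding transferrin to the transferrin receptor, which is taken into endosomes, and store what they do not use inside the ferritin shell. When iron is scarce, IRP1 and IRP2 bind a hairpin in certain messenger RNAs, the iron-responsive element (IRE). An IRE in the 5′ UTR, as in ferritin mRNA, then blocks translation, while the IREs in the 3′ UTR of Tfrc protect that mRNA from decay. IRP binding thus acts on the stability of Tfrc mRNA and mainly on the translation of ferritin mRNA. Red cell precursors carry much transferrin receptor because heme synthesis uses iron.

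The IREs are shown here because they occur in the UTRs of Ftl1, Fth1 and Tfrc. They were searched in GENCODE transcripts of the build the authors used (mm10) as a C, 5 bases of any kind, CAGTGN and 5 bases of any kind, on the transcribed strand, where the 5 bases before the loop had to pair with the 5 bases after it (G-T pairs allowed). The 6 loop bases are in capitals, with 6 bases of flank on either side of the element. The ferritin elements are at chr7:45459779-45459807 (minus strand) and chr19:9982732-9982760 (plus strand).
Ftl1 5′ UTR: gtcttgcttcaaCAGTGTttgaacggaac
Fth1 5′ UTR: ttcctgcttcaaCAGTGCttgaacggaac
The stretches are identical at 26 of 29 bases. They begin 77 bases (Ftl1) and 29 bases (Fth1) after the start of the gene in the deposited table.

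Tfrc held 4 matches, all in its 3′ UTR on chromosome 16, plus strand, within 508 bases of each other. They are at chr16:32631219-32631247, chr16:32631598-32631626, chr16:32631663-32631691 and chr16:32631710-32631738.
Tfrc 3′ UTR, match 1: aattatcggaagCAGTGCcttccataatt
Tfrc 3′ UTR, match 2: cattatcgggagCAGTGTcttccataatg
Tfrc 3′ UTR, match 3: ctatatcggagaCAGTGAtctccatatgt
Tfrc 3′ UTR, match 4: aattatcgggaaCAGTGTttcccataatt
Among the 17 bases of the element itself, matches 1 and 2 share most, at 15, and matches 2 and 3 fewest, at 11. The Ftl1 element shares 8 to 11 of 17 with those of Tfrc. The transcripts of Ireb2 and Aco1 held no match.

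The search does not find every IRE, so the matches in Tfrc need not be all of its IREs. Of 10 mRNAs known to carry one, 6 held a match in the transcript searched, while those of Slc11a2, Epas1, Cdc14a and Cdc42bpa held none. Of 21866 protein-coding genes, 20 (0.0915%) held one in the 5′ UTR and 118 (0.54%) in the 3′ UTR of the transcript searched. Tfrc was the 1 gene with 2 or more in the 3′ UTR. A match describes the letters and is no evidence that the element was bound in these cells.

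**Figure D1:**
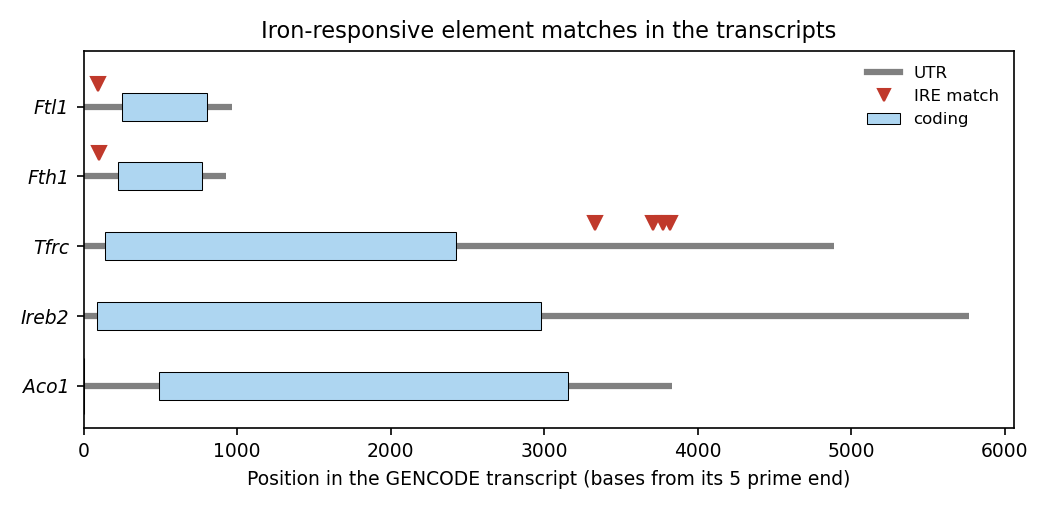
The 5 transcripts are drawn to scale by position in bases, with UTRs as grey lines, coding sequence as boxes and IRE matches as triangles. Ftl1 and Fth1 have 1 match each near the 5′ end, Tfrc has 4 in the 3′ UTR, and Ireb2 and Aco1 have none.

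Ferritin light chain was among the most abundant transcripts of these cells. Ferritin heavy chain and the transferrin receptor in hCALR-del52 cells were at 1.67 and 1.63 times their level in hCALR cells without passing the authors' test. The light chain and IRP2 were nearly equal in both groups. By Cuffdiff, 0 of the 4 genes had a q under 0.05 in the authors' deposited table, where 1.84% of rows did (0.872% higher and 0.967% lower in hCALR-del52 cells). At an unadjusted p under 0.05, 1 of the 4 passed, against 4.9% of all rows, and Benjamini-Hochberg adjustment over all rows called 0 of the 4, against 1.36% of all rows. Levels are in FPKM, a count of fragments divided by transcript length and library size, so that genes can be compared with each other. The table gives 1 value per group, so the values carry no SD, sample depth is unknown, and whether groups overlap by replicate was not analysed here.

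The ferritin chains together form a hollow shell, whose heavy chain oxidises iron on entry and whose light chain helps form the mineral core. Ftl1 (ENSMUSG00000050708, chromosome 7, 45457944 to 45459884, mm10, minus strand) was at 6383 FPKM in hCALR-del52 cells and 6053 FPKM in hCALR cells. Its mean level had rank 11 of 12615 rows. The authors' deposited table gave Ftl1 a log2 fold change of 0.08 with a test statistic of 0.0281, p = 0.96 and q = 0.999932. Among rows with a symbol, Ftl1 stood by level between the ribosomal protein gene Rpl13a and Ifitm1. Rpl13a was at 7102 FPKM in hCALR-del52 cells and 6667 FPKM in hCALR cells. Ifitm1, an interferon-inducible membrane protein gene, was at 5962 FPKM in hCALR-del52 cells and 4008 FPKM in hCALR cells.

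Fth1 (ENSMUSG00000024661, chromosome 19, 9982703 to 9985092, plus strand) was at 1741 FPKM in hCALR-del52 cells and 1043 FPKM in hCALR cells, a ratio of 1.67 and a difference of 698 FPKM. The authors' deposited table gave Fth1 a log2 fold change of 0.74 with a test statistic of 1.56, p = 0.0359 and q = 0.325. Fth1 was thus higher in hCALR-del52 cells by its group values, but its change was not called. Its mean level had rank 87, between the ribosomal protein genes Rpl12 and Rpl7. Rpl12 was at 1456 FPKM in hCALR-del52 cells and 1354 FPKM in hCALR cells, and Rpl7 at 1387 FPKM in hCALR-del52 cells and 1390 FPKM in hCALR cells.

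By these group values, Fth1 made up 21.4% of the summed ferritin FPKM in hCALR-del52 cells and 14.7% in hCALR cells, of sums of 8125 FPKM in hCALR-del52 cells and 7095 FPKM in hCALR cells. The light chain exceeded the heavy chain 3.67-fold in hCALR-del52 cells and 5.80-fold in hCALR cells. The difference between groups in this share and ratio follows mainly the Fth1 value, whose change was not called. Fth1 was at 1.67 times and Ftl1 at 1.05 times its hCALR level in hCALR-del52 cells. No test of this ratio can be had from group values. Its size also rests on the Ftl1 value, whose limits come next.

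Both ferritin chains share sequence with other loci, Ftl1 with the most. Over at least 300 aligned bases at 80% identity or more, 18 other annotated genes on 12 chromosomes matched the 968-base Ftl1 transcript on its own strand. Of these, 17 are annotated as processed pseudogenes, and 5 were at least 95% identical. The closest was Ftl1-ps1 (chromosome 13, 74399694 to 74407346, annotated as protein-coding), 99.6% identical over 910 bases or 94.0% of the Ftl1 transcript. Fth1 had 3 such genes, all pseudogenes, of which Gm6977 was the closest at 90.5% identity. The search found 0 for Tfrc, Ireb2 and Aco1.

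Reads from near-identical copies can be divided among them, so the FPKM of Ftl1 is uncertain to that extent. The sources used here do not state how the authors' counting treated such reads. Of the 18 genes, 1 had its identifier in the deposited table: Gm12164 (chromosome 11, 45829319 to 45829869), 96.0% identical to Ftl1, in a row without a symbol that carries 2 identifiers. That row was at 5.61 FPKM in hCALR-del52 cells and 1.75 FPKM in hCALR cells, with p = 0.0216 and q = 0.229 in the authors' deposited table. Its level is small beside that of Ftl1.

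**Figure D2:**
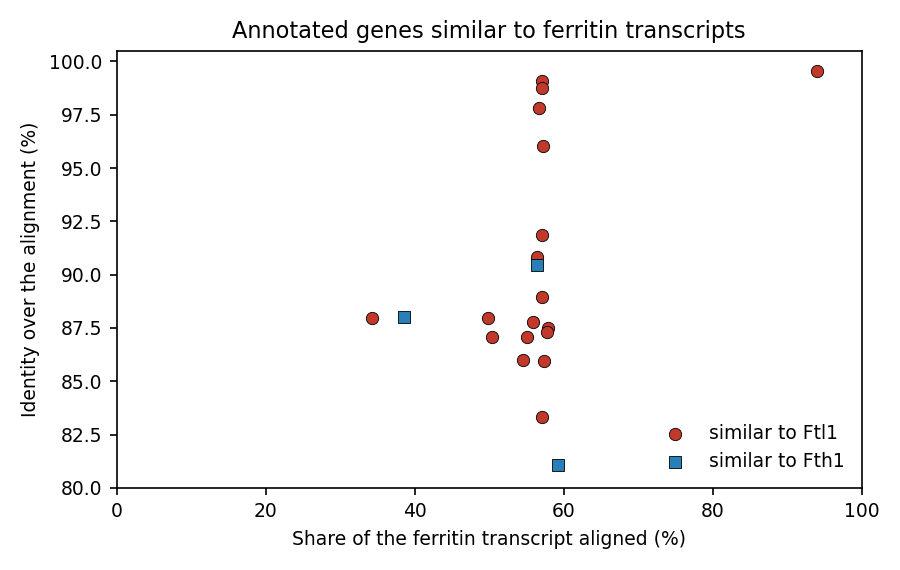
Each point is an annotated gene similar to the Ftl1 (circles) or Fth1 (squares) transcript, by the share of that transcript aligned (x, percent) and the identity over the alignment (y, percent). Of the 18 genes similar to Ftl1, 5 lie at or above 95% identity, while the 3 similar to Fth1 lie between 81.1% and 90.5%.

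Tfrc, which brings transferrin-bound iron into the cell, was the member below the ferritins in level. Tfrc (ENSMUSG00000022797, chromosome 16, 32608859 to 32632805, plus strand) was at 170.0 FPKM in hCALR-del52 cells and 104 FPKM in hCALR cells, a ratio of 1.63. The authors' deposited table gave Tfrc a log2 fold change of 0.70 with a test statistic of 1.20, p = 0.07 and q = 0.489. Tfrc was higher by its group values and was not called. It had rank 720 by level, between the elongin B gene Tceb2 and the cohesin gene Smc1a. Tceb2 was at 147 FPKM in hCALR-del52 cells and 129 FPKM in hCALR cells, and Smc1a at 136 FPKM in hCALR-del52 cells and 138 FPKM in hCALR cells.

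Tfrc stood in nearly the same proportion to Fth1 in both groups, at 0.0977 of the Fth1 level in hCALR-del52 cells and 0.1001 in hCALR cells. These transcripts carry IREs at opposite ends of the mRNA, and both had the higher value in hCALR-del52 cells. Neither change was called, and any part of IRP binding in these values was not tested. The receptor exceeded Ireb2 8.49-fold in hCALR-del52 cells and 5.34-fold in hCALR cells.

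Ireb2, whose product IRP2 is degraded when iron is plentiful, was the lowest of the 4 genes. Ireb2 (ENSMUSG00000032293, chromosome 9, 54863755 to 54912534, plus strand) was at 20.02 FPKM in hCALR-del52 cells and 19.5 FPKM in hCALR cells. The authors' deposited table gave Ireb2 a log2 fold change of 0.03 with a test statistic of 0.086, p = 0.895 and q = 0.999932. At rank 5198 Ireb2 stood between Pank4 and Fam129a among rows with a symbol. Pank4 was at 20.9 FPKM in hCALR-del52 cells and 18.7 FPKM in hCALR cells. Fam129a was at 15.8 FPKM in hCALR-del52 cells and 23.7 FPKM in hCALR cells. IRP2 is controlled mainly at the protein level, which was not measured. The order Ftl1, Fth1, Tfrc, Ireb2 was the same in both groups.

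**Figure D3:**
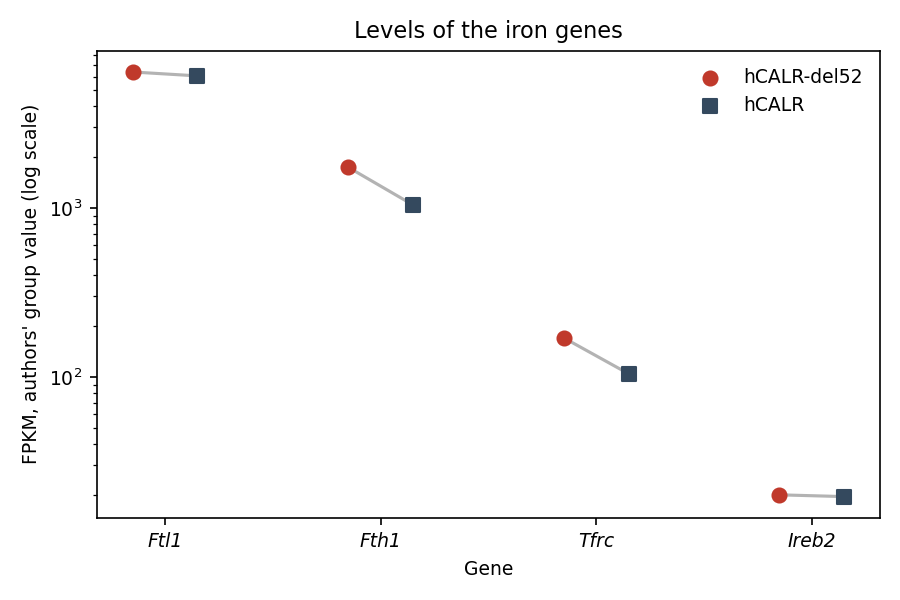
FPKM of the 4 measured genes on a log axis, with hCALR-del52 as circles on the left of each pair and hCALR as squares on the right, 1 authors' group value each and no error bar. Fth1 (1741 FPKM in hCALR-del52 cells, 1043 FPKM in hCALR cells) and Tfrc (170.0 FPKM in hCALR-del52 cells, 104 FPKM in hCALR cells) slope between the groups, while Ftl1 and Ireb2 are nearly level.

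The size of a change that the authors' test called in rows near in level was set beside Fth1 and Tfrc. Among the 500 rows nearest to Fth1 in level, 5 were called (1.00%), and the smallest absolute log2 fold change called was 1.11 in the authors' deposited table. A log2 fold change at least as high as that of Fth1 was held by 10 of these rows, of which 2 were called. Among the 500 rows nearest to Tfrc, 3 were called, the smallest at an absolute log2 fold change of 1.43 in the authors' deposited table. There 11 rows were at least as high as Tfrc, and 2 of them were called. Changes of the size seen for Fth1 and Tfrc thus lay under the smallest change called among these rows, which for Fth1 include much lower levels. Over the whole table, 3.55% of rows had a higher log2 fold change than Fth1 and 3.84% a higher one than Tfrc.

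**Figure D4:**
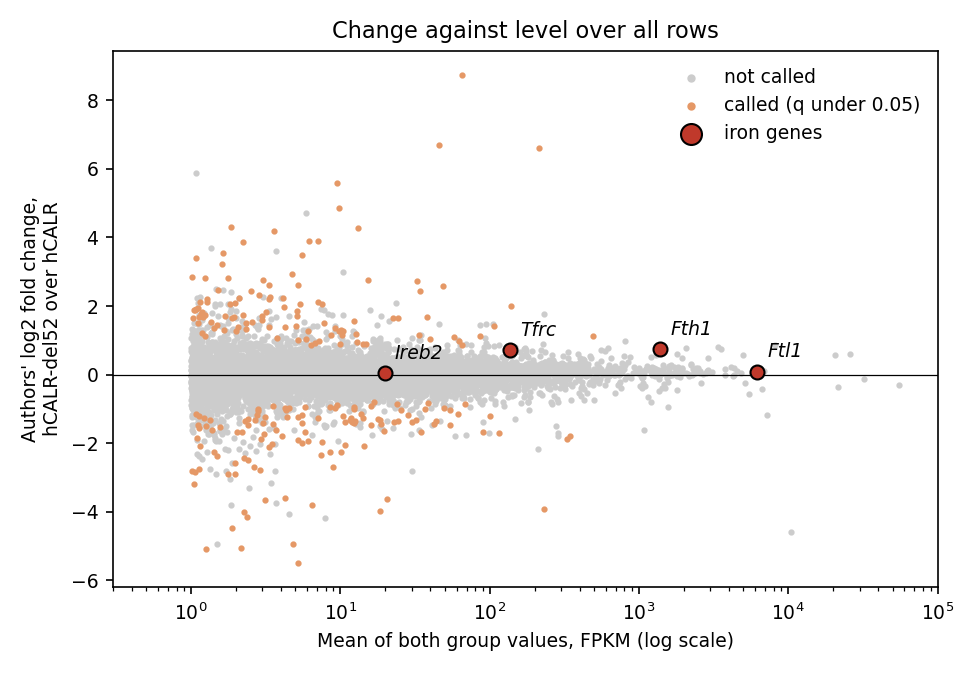
Each point is a row of the deposited table, by mean FPKM of both groups (x, log scale) and the log2 fold change, hCALR-del52 against hCALR, of the authors' deposited table (y), with called rows in orange and the 4 iron genes in red. Fth1 (0.74) and Tfrc (0.70) lie above 0 and are not called, and Ftl1 (0.08) and Ireb2 (0.03) lie near 0.

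Most other genes of the iron pathway were close to equality. In 7 lists that cover iron entry, export, ferritin and its turnover, sensing, systemic regulation and iron-sulfur assembly, 59 of 92 genes were measured. Of these 1 was called higher and 0 lower in the authors' deposited table, where 1.84% of all rows were called. An unadjusted p under 0.05 was held by 2, against 4.9% of all rows, and adjustment over all rows left 1 call, against 1.36%. These shares of all rows apply to each list below. Without the 4 genes described above, 55 remained, of which 54 had a log2 ratio within 0.5 of 0, as did 90.2% of all rows. These 55 genes had mean levels of 2.51 to 273 FPKM. All rows include lower and higher levels, and the share among rows of like level was not computed. The log2 ratio is log2((FPKM hCALR-del52 + 1)/(FPKM hCALR + 1)). The median log2 ratio was 0.03 over the 59 genes and -0.01 over all rows. Fth1 was the second and Tfrc the third from the top of the 59 genes by log2 ratio.

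The 1 called gene was Zfp36, in the list of iron sensing and IRP turnover. It encodes tristetraprolin, which binds AU-rich mRNAs and promotes their decay, and it is also an immediate early gene. Zfp36 rose to 6.13 FPKM in hCALR-del52 cells, against 2.36 FPKM in hCALR cells, with a log2 fold change of 1.37 and q = 0.00427 in the authors' deposited table. Of 12 measured genes in that list, 7 were higher and 5 lower by value. Fbxl5, the iron-sensing ligase subunit that marks IRP2 for degradation, was at 10.97 FPKM in hCALR-del52 cells and 9.52 FPKM in hCALR cells. The lowest ratio was that of Hif1a, a subunit of the hypoxia-inducible factor, at 22.2 FPKM in hCALR-del52 cells and 30.2 FPKM in hCALR cells (p = 0.239 in the authors' deposited table). Next to it, Egln1, an iron-dependent prolyl hydroxylase gene, was at 19.6 FPKM in hCALR-del52 cells and 25.3 FPKM in hCALR cells. Neither was called.

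Of 16 genes for iron entry and release from endosomes, 8 were measured and 0 were called, also at an unadjusted p under 0.05 and after adjustment over all rows. Besides Tfrc, 4 of the 7 others were higher by value, and their median log2 ratio was 0.04. The second transferrin receptor gene Tfr2 was at 22.8 FPKM in hCALR-del52 cells and 20.1 FPKM in hCALR cells. The endosomal reductase gene Steap3 was at 11.1 FPKM in hCALR-del52 cells and 10.1 FPKM in hCALR cells. The iron transporter gene Slc11a2, which encodes DMT1, was at 14.9 FPKM in hCALR-del52 cells and 14.6 FPKM in hCALR cells. None of these 3 genes had a log2 ratio above 0.17. The highest of the 7 others was 0.21, for Slc48a1, at 103 FPKM in hCALR-del52 cells and 88.6 FPKM in hCALR cells. The lowest ratio, a log2 ratio of -0.40, belonged to Slc39a14, a zinc and iron importer gene, at 10.95 FPKM in hCALR-del52 cells and 14.7 FPKM in hCALR cells. The genes of the export list, which includes the ferroportin gene Slc40a1, were not analysed here.

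In the list of ferritin, its chaperones and its turnover, 6 of 9 genes were measured, 0 were called and all 6 were higher by value, with a median log2 ratio of 0.13. At an unadjusted p under 0.05, 1 passed, which was Fth1. Without Ftl1 and Fth1, the median log2 ratio of the 4 others was 0.11. Among them, Pcbp1 and Herc2 were nearly equal in both groups, at log2 ratios of 0.02 and 0.03. Over all 12615 rows, 6021 were higher by value. Ncoa4, the receptor that delivers ferritin to lysosomes, was at 113 FPKM in hCALR-del52 cells and 96.5 FPKM in hCALR cells. Of the iron chaperone genes, Pcbp2 was at 151 FPKM in hCALR-del52 cells and 133 FPKM in hCALR cells. Pcbp1 had the lowest ratio of the list, at 275 FPKM in hCALR-del52 cells and 271 FPKM in hCALR cells.

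Iron-sulfur cluster assembly showed 0 calls in 21 mitochondrial and 10 cytosolic genes, and 0 after adjustment over all rows or at an unadjusted p under 0.05. The median log2 ratio was 0.03 over the mitochondrial and -0.05 over the cytosolic genes. The mitochondrial extremes were Nubpl, an assembly factor of complex I, at 15.7 FPKM in hCALR-del52 cells and 12.2 FPKM in hCALR cells, and Bola3, at 61.2 FPKM in hCALR-del52 cells and 71.2 FPKM in hCALR cells. The cytosolic extremes were Nubp1, at 28.8 FPKM in hCALR-del52 cells and 24.4 FPKM in hCALR cells, and Mms19, at 69.1 FPKM in hCALR-del52 cells and 80.1 FPKM in hCALR cells. Mitoferrin 1 (Slc25a37), which brings iron into mitochondria for heme synthesis, was at 22.97 FPKM in hCALR-del52 cells and 23.9 FPKM in hCALR cells. Of 14 genes of hepcidin and systemic regulation, 3 were measured, and 0 were called in the authors' deposited table, also after adjustment over all rows and at an unadjusted p under 0.05.

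Of 10 mRNAs known to carry an IRE, 6 were measured, 0 were called and all 6 were higher by value. Among these 6 are Ftl1, Fth1 and Tfrc, already described, and over all 12615 rows 6021 were higher by value. At an unadjusted p under 0.05, 1 of the 6 passed, again Fth1, and adjustment over all rows called 0. Slc11a2 had the lowest ratio of the 6.

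**Figure D5:**
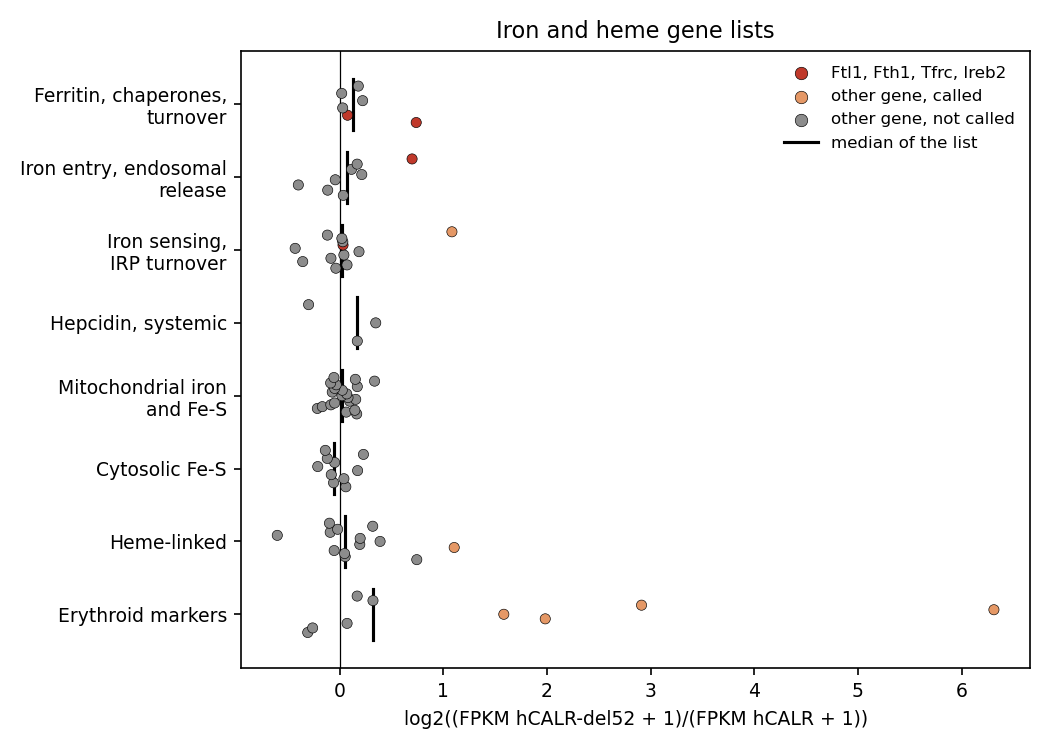
Each point is a gene, by log2 ratio of hCALR-del52 over hCALR (x) and gene list (rows), with the 4 iron genes in red, other called genes in orange, other genes in grey and a bar at each median. Fth1 (0.74) and Tfrc (0.70) have the highest ratios of the ferritin and the entry list, the called points are Zfp36, Blvrb and 4 globin genes, and the medians of the iron lists lie between -0.05 and 0.17.

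The list of heme-linked genes includes genes of heme synthesis and of heme breakdown. It held 1 call among 13 measured of 14, where 1.84% of all rows were called. At an unadjusted p under 0.05, 3 passed, against 4.9% of all rows. Blvrb, a biliverdin reductase gene, rose to 118 FPKM in hCALR-del52 cells, against 54.2 FPKM in hCALR cells, with a log2 fold change of 1.12 and q = 0.00296 in the authors' deposited table. Hmox1, heme oxygenase 1, which frees iron from heme, was at 13.6 FPKM in hCALR-del52 cells and 21.1 FPKM in hCALR cells (p = 0.0419 and q = 0.359 in the authors' deposited table) and had the lowest ratio of the list. Alad, an enzyme gene of heme synthesis, was at 158 FPKM in hCALR-del52 cells and 94.2 FPKM in hCALR cells, with p = 0.01725 and q = 0.196 in the authors' deposited table. Its row carries 2 gene identifiers.

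Globin genes were higher in the same cells that had the higher Fth1 and Tfrc values. Of 12 erythroid markers, 9 were measured. The authors' deposited table called 4 higher, all of them globin genes, and 0 lower, against 0.872% and 0.967% of all rows. After adjustment over all rows 3 were called, against 1.36% of all rows. The summed level of the 9 markers was 864 FPKM in hCALR-del52 cells and 247 FPKM in hCALR cells. The 4 globin genes made up 660.4 FPKM in hCALR-del52 cells and 60.9 FPKM in hCALR cells. The 5 other markers summed to 204 FPKM in hCALR-del52 cells and 186 FPKM in hCALR cells, with 3 higher and 2 lower by value. Hbb-b1, an adult beta-globin gene, was at 422 FPKM in hCALR-del52 cells and 4.33 FPKM in hCALR cells. The erythroid factor genes were not called: Klf1 was at 77.4 FPKM in hCALR-del52 cells and 61.8 FPKM in hCALR cells, while Gata1 was at 83.2 FPKM in hCALR-del52 cells and 79.1 FPKM in hCALR cells. The lowest ratio was that of the membrane protein gene Epb4.2, at 12.6 FPKM in hCALR-del52 cells and 15.9 FPKM in hCALR cells. The erythroid markers Alas2 and Slc4a1 were not analysed here. Of 8 macrophage markers, which matter because macrophages handle much iron, 3 were measured, with a summed level of 13.96 FPKM in hCALR-del52 cells and 43.4 FPKM in hCALR cells. Among them Emr1 fell to 2.20 FPKM in hCALR-del52 cells, against 34.9 FPKM in hCALR cells. Lyz2 rose to 6.98 FPKM in hCALR-del52 cells, against 3.48 FPKM in hCALR cells, a call that adjustment over all rows did not keep. Cd68 was at 4.78 FPKM in hCALR-del52 cells and 4.93 FPKM in hCALR cells, so the lower sum in hCALR-del52 cells rests on Emr1. The part of these markers in the Fth1 and Tfrc values was not tested. In bulk RNA, more cells of a type and more RNA per cell cannot be told apart. Of 14 pro-B markers, 1 was measured, Cd79b, at 5.09 FPKM in hCALR-del52 cells and 8.64 FPKM in hCALR cells, so the labelled cell type could not be checked against the others.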

How the data were processed

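Per the labels, 3 hCALR-del52 and 3 hCALR replicates of Ba/F3 cells gave total RNA for sequencing; titles set the groups. The authors' alignment and testing tools were TopHat2 2.0.9 with Bowtie2 2.1.0, then Cuffdiff 2.1.1, on mm10 with Ensembl genes, per the file headers, which also say that weakly expressed and highly variable genes were left out. The authors' deposited table gives FPKM as 1 value per group, a log2 fold change with hCALR-del52 as numerator, a test statistic (a score of Cuffdiff), p-values and Benjamini-Hochberg q-values. The rank, a score deposited by the authors, was not used for results. The depth per sample is unknown, no value per replicate was used here, and no count model was fitted.

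Starts count from 0 in the table, and 1 was added. The call is the authors' q under 0.05. Members and gene lists were chosen with earlier results of these data known. Of rows with the same symbol, that of highest mean FPKM was taken. Named genes were the 4 measured members, called genes of the iron lists and the highest and lowest ratio of each list. Also named were the next gene with a symbol above and below each member in mean FPKM, and ferritin copies that the annotation names. Other genes were named after their values were seen. Log2 ratios used a pseudocount of 1. IREs and coding regions came from GENCODE M21 transcripts, for the 5 members the first numbered transcript and otherwise the longest coding transcript of a gene. Copies were sought with BLAST 2.17.0 (expect value 1e-20, 1 strand). The adjustment and the IRE search were tested on simulated data. A planned comparison of protein sequences was not made. Alternatives were other adjustments, thresholds, pseudocounts, centring and row choices. Python 3.11.15 and pandas 2.3.3 were used.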

Additional observations from a re-analysis of the deposited data

How the results depend on the processing

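Of 103 alternative values computed, all but 2 stayed within the limits set (the same side of the threshold for a call, 0.1 on the log2 scale for a ratio or median, 1.5 times for a count or rank). With rows that carry a symbol only, the level rank of Ftl1 was 6 in place of 11. With at least 1 FPKM in both groups, 146 rows of the table were called in place of 232, since that filter removes rows. Every alternative for the call of a member was stricter than the authors' q under 0.05, so none could add a call and they say nothing about stability. Alternatives for the called genes of a list were stricter or kept fewer rows, so a list with 0 calls could not gain any. That all but 2 values stayed within the limits is therefore no measure of how stable the calls are. The adjusted p of Fth1 over all rows was 0.848. The log2 ratio of Fth1 ranged from 0.74 to 0.76, that of Tfrc from 0.70 to 0.72, that of Ftl1 from 0.08 to 0.10 and that of Ireb2 from 0.03 to 0.05 over pseudocounts, centring and upper-quartile scaling. The largest shift of a list median was 0.04. No member had a repeated symbol, so the alternatives for repeated rows gave no value. No paired analysis was possible because FPKM come as 1 value for each group. Leaving out a replicate or fitting a replicate block could therefore not be done.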

Other observations

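The mature sequence of mmu-miR-692, a mouse microRNA annotated at 3 loci in RefSeq (GRCm38.p6), occurs whole in the Ftl1 transcript. With its seed (bases 2 to 8) in capitals, the 21 bases are shown because they match at positions 771 to 791 of the transcript, inside the coding sequence that runs from position 254 to 802. The match is identity on the transcribed strand, not complementarity, so it is no target site of the microRNA.
mmu-miR-692: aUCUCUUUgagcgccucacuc
The other transcripts searched, those of Fth1, Tfrc, Ireb2 and Aco1, held 0 matches. The locus of Mir692-2 lies on chromosome 4 (125504805 to 125504825 for the mature form), inside the Ftl1 pseudogene Ftl2-ps (125504288 to 125504839). The locus of Mir692-3 lies on chromosome 13 (74407121 to 74407141), inside Ftl1-ps1 (74399694 to 74407346). The locus of Mir692-1 on chromosome 17 (6895259 to 6895279) lies inside none of the 18 genes similar to Ftl1.

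The chromosome around the 4 genes was also described. Within 250 kb, 36 other genes with a symbol were measured, and 0 were called in the authors' deposited table, against 1.84% of all rows. An unadjusted p under 0.05 was held by 2, against 4.9% of all rows, and adjustment over all rows called 0, against 1.36%. Around Fth1, 5 genes had log2 ratios between -0.15 and 0.36, with a median of 0.13. Around Tfrc, 10 genes had a median log2 ratio of 0.12 and ranged from -0.14 to 0.89. The highest, Zdhhc19, lay above Tfrc itself at 0.70. Its mean level over both groups was only 4.03 FPKM, against 137 FPKM for Tfrc. Around Ftl1, 17 genes had a median log2 ratio of 0.10 and ranged from -0.49 to 1.63. Around Ireb2, 4 genes had a median of -0.14 and ranged from -0.48 to 0.25.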
